A study of Rattus norvegicus with 6 samples.

Results

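Laminins, nidogens and integrins were examined in cultured aortic cells of 2 inbred rat strains. The members were the genes of the deposited count table with a symbol of a laminin chain (Lama, Lamb or Lamc), of Nid1 or Nid2, or of an integrin alpha or beta subunit, which gave 39 of 16770 genes. They comprised 11 laminin chains, 2 nidogens and 26 integrin subunits, and the rule uses symbols and no expression value, although it was set with earlier results of these data known. The spontaneously hypertensive rat (SHR) was compared with the normotensive Wistar Kyoto rat (WKY). Cells of both strains grew out of pieces of proximal aorta from 3-month-old animals, laid with the endothelial side down, in endothelial medium with 10% serum, antibiotics and growth supplement. No other treatment or allele is named in the labels. There were 3 libraries of each strain, and in each strain replicates 1 and 2 carry the label batch 1 and replicate 3 carries the label batch 2. Nothing in the labels ties a library to its own animal or culture, so a p-value here covers the spread among libraries of a strain, which may be technical.

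Laminins are trimers of an alpha, a beta and a gamma chain that polymerise beneath endothelial, muscle and epithelial cells into the basement membrane. Nidogens link that network to type IV collagen. Integrins are alpha-beta pairs in the plasma membrane that bind matrix proteins and connect them to the actin cytoskeleton, and the alpha subunit largely sets the ligand. The subunits encoded by Itga3, Itga6 and Itga7 favour laminins. Those of Itga1, Itga2, Itga10 and Itga11 favour collagens, and those of Itga5, Itga8 and Itgav recognise fibronectin, nephronectin or vitronectin.

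Depth ran from 18462032 to 19947286 estimated counts per library. The labels call the cells endothelial, but of 10 endothelial markers found in the table only Flt1 and Egfl7 reached 1 CPM (the count scaled to a common library total, with TMM factors) in every library. Cdh5, Tie1, Kdr, Vwf and Erg, which define the endothelium, stayed below 1 CPM in all of them. Tek had 0.66, 1.85 and 0.44 CPM in WKY and 4.72, 9.38 and 8.32 CPM in SHR, without overlap. Pecam1 reached 2.18 CPM in SHR replicate 3, and Esam 1.87 CPM in WKY replicate 3. The summed endothelial level was 25.6 to 99.0 CPM in WKY and 48.5 to 77.5 CPM in SHR. The sum of 8 fibroblast markers was 4318 to 12079 CPM in WKY and 9587 to 18357 CPM in SHR. Col1a1 made up most of the WKY sums, with 3846, 5940 and 10878 CPM in WKY and 8784, 7517 and 4560 CPM in SHR. At an unadjusted p below 0.05, 6 of the 8 were higher in SHR (6.1% of all genes). So were 2 mesothelial and epithelial markers, 1 endothelial and 1 Schwann cell marker, while 2 smooth muscle markers were lower (7.18% of all genes). The sum of 8 smooth muscle markers was 8144 CPM in WKY replicate 3, against 749 to 1860 CPM in the other 5 libraries. Of 7 leukocyte markers, Ptprc, Aif1 and C1qa were at 0 in all libraries, and Csf1r and Lyz2 stayed below 1 CPM. Cd14 and Cd68, however, exceeded 1 CPM in every library. The sum of 9 mesothelial and epithelial markers was 174 to 679 CPM in WKY and 454 to 1473 CPM in SHR. For 5 pericyte markers it was 49.6 to 530.04 and 28.5 to 65.2 CPM, and for 3 Schwann cell markers 1.49 to 9.14 and 13.9 to 61.9 CPM.

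Of the 39 members, 31 had enough counts to be tested, and 24 of them reached a mean of 5 CPM in a strain. Integrin alpha subunits were mostly at lower levels in SHR. The fitted log2 fold change (SHR over WKY, with batch as a term) was below 0 in 11 of 13 tested alpha subunits, with a median of -1.44, and in 21 of all 31 tested members, with a median of -0.41. Over all genes tested 52.6% were below 0 and the median was -0.02. By the quasi-likelihood test of edgeR, adjusted over all 12614 genes tested, 0 members were called at an adjusted p below 0.05, against 0.254% of all genes (0.103% higher and 0.151% lower in SHR). At an unadjusted p below 0.05, 9 members were lower in SHR (7.18% of all genes) and 4 were higher (6.1% of all genes). The Wald test of DESeq2 called 6 members lower (2.46% of all genes) and 3 higher (2.68%) at an adjusted p below 0.05. The lower ones were Lama5, Itga1, Itga3, Itga6, Itga7 and Itga8, and the higher ones Itga9, Itgb3 and Itgb8. In 6 members the strains were apart in every library, with SHR below WKY (5.3% of all genes), and in 4 with SHR above (4.51%). In bulk RNA, fewer cells of a type and less RNA per cell cannot be told apart, and this holds for every difference given here. Of the marker sums given above, those of fibroblasts, Schwann cells and mesothelial and epithelial cells also had higher means in SHR, and those of smooth muscle cells and pericytes higher means in WKY, where WKY replicate 3 held the highest value of both. The part of such cells in the members' strain differences was not tested.

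**Figure D1:**
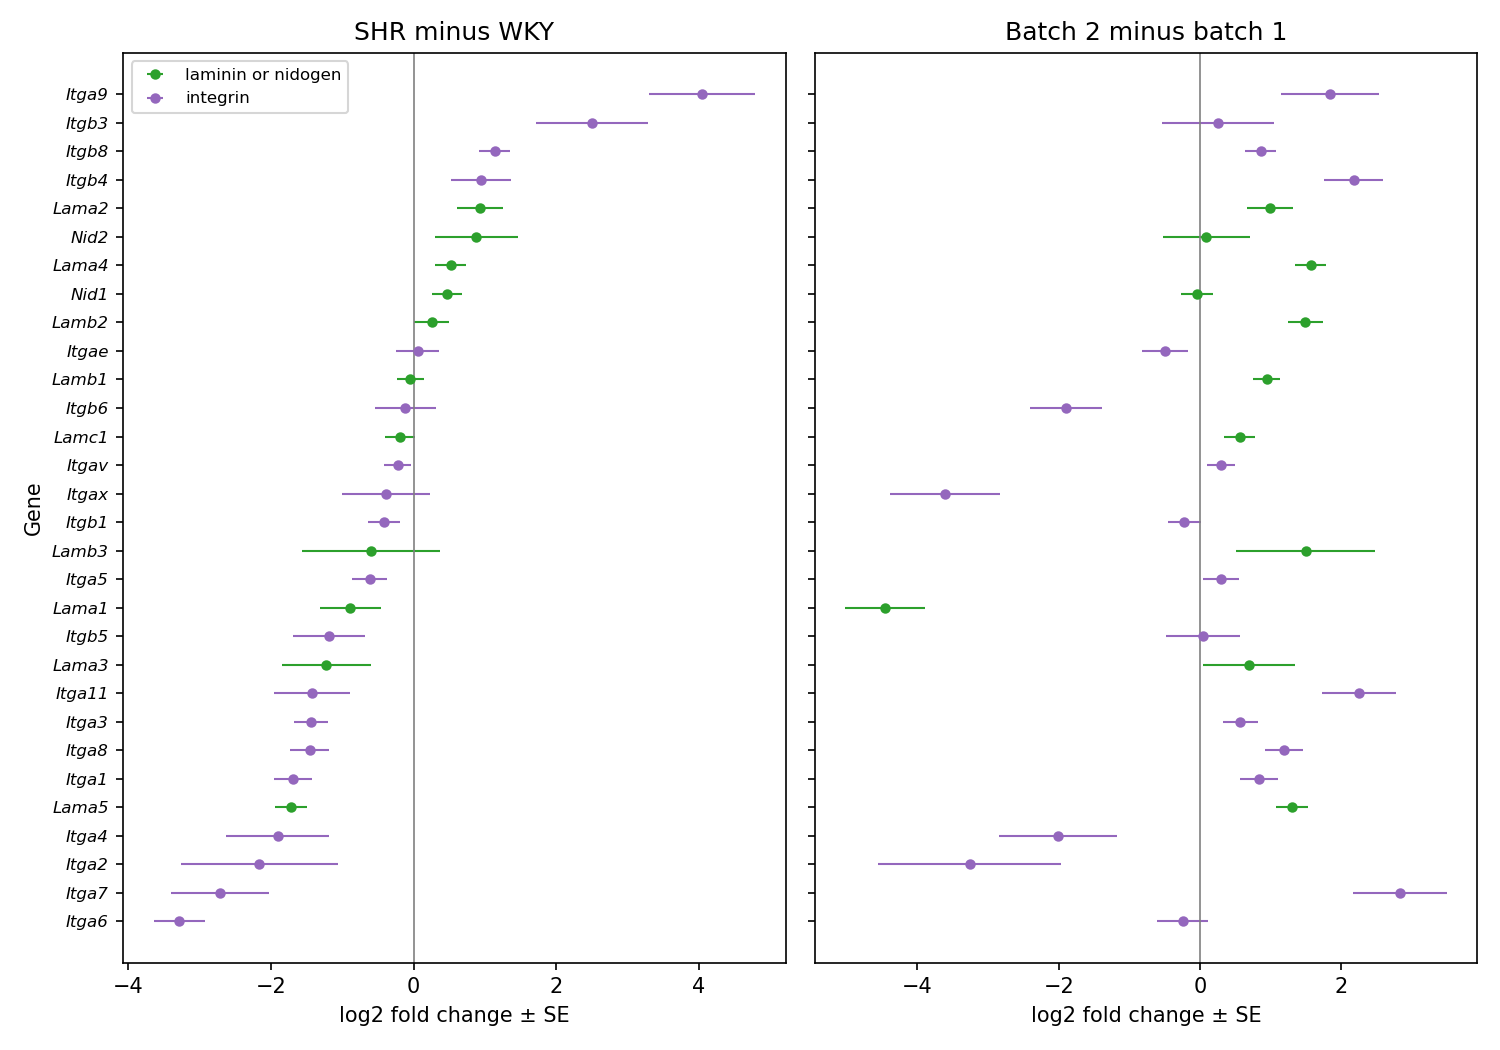
Fitted log2 fold changes of the tested members reported here, SHR minus WKY on the left and batch 2 minus batch 1 on the right, with bars of 1 standard error; both panels list the genes in the order of the strain difference. Itga6 (-3.28) and Itga7 (-2.71) stand at the low end for strain and Itga9 (4.05) at the high end, and Lama1 (-4.46) at the low end for batch.

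The alpha chain gives a laminin most of its receptor preference. Lama5 (gene identifier 140433), the alpha chain of the main laminins of adult vessels, stood at 213, 163 and 602 CPM in WKY replicates 1, 2 and 3 and at 70.8, 66.3 and 127 CPM in SHR. Every SHR library was below every WKY library, and in each strain the batch 2 library was the highest. The log2 fold change was -1.72 (SE 0.23), a 3.29-fold lower level, with an adjusted p of 0.0778 by edgeR and 1.98e-09 by DESeq2. Between strains the log2 difference was -1.44 in batch 1 and -2.24 for the single libraries of batch 2. In the log2 values deposited by the authors, in which batch means are equal, the mean of Lama5 was 12.21 ± 0.23 for WKY and 11.11 ± 0.19 for SHR (SD, n = 3 each).

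Lama2, the alpha chain of muscle and mesenchymal laminins, had a positive strain difference. It stood at 45.6, 69.6 and 134 CPM in WKY and 162, 81.8 and 206 CPM in SHR, so the SHR range began above only 2 of the 3 WKY libraries. Its log2 fold change of 0.93 (SE 0.32) had an adjusted p of 0.334 by edgeR and 0.0926 by DESeq2. Lama4, an alpha chain of endothelial and mesenchymal laminins, had 41.5, 25.6 and 111 CPM in WKY and 55.7, 48.1 and 138 CPM in SHR. Within each batch the SHR libraries of Lama4 were the higher ones, and the strain difference was 0.52 (SE 0.22, edgeR adjusted p = 0.388). Lama3, known from epithelial laminins, had 31.7, 11.2 and 66.8 CPM in WKY and 15.2, 14.7 and 10.2 CPM in SHR, with overlapping strains. Lama1, best known from the embryo, had 11.6, 7.98 and 0.25 CPM in WKY and 3.25, 5.30 and 0.31 CPM in SHR. It was lowest in both batch 2 libraries.

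Of the counts of the 5 alpha chains, Lama5 held a larger part in each WKY library than in any SHR library. It took 62.0%, 58.8% and 65.8% of laminin alpha counts in WKY and 23.0%, 30.7% and 26.4% in SHR. The WKY mean was 62.2% ± 3.51 and the SHR mean 26.7% ± 3.82 (SD, n = 3 each). The two-sided exact permutation p was 0.1, which 3 against 3 cannot go below, and 0.2 adjusted over the 2 shares tested. Lama5 had been known to be lower in SHR when this share was chosen. Lama2 took 13.3% to 25.1% in WKY and 37.8% to 52.8% in SHR. Lama4 took 9.21% to 12.2% in WKY and 18.1% to 28.6% in SHR, also without overlap. The shares of a library add up to the whole, so a smaller Lama5 share by itself raises the others. In CPM the strains overlapped for both Lama2 and Lama4. The summed alpha chain level was 278 to 915 CPM in WKY and 216 to 481 CPM in SHR, so it overlapped between strains. These are shares of counts, which also depend on transcript length, and not shares of molecules.

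**Figure D2:**
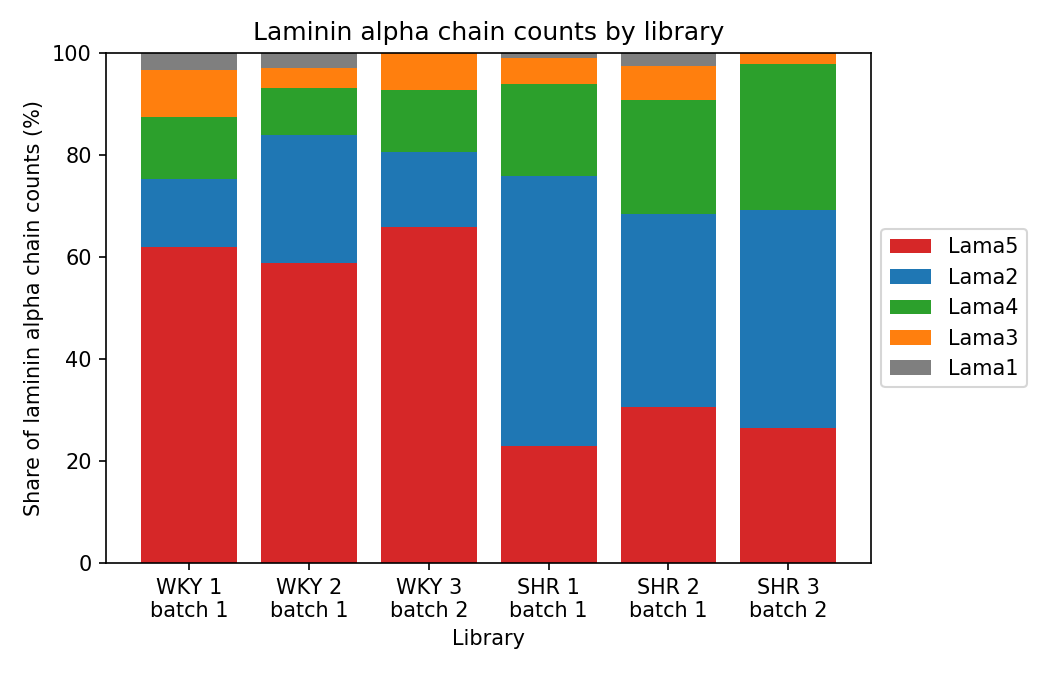
Share of laminin alpha chain counts (%) held by each of Lama1 to Lama5 in each of the 6 libraries. Lama5 holds 58.8% to 65.8% in the WKY bars and 23.0% to 30.7% in the SHR bars, in both batches.

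Lamc1, Lamb1 and Lamb2, which join these alpha chains, did not pass the strain test by either tool. Lamc1, the gamma chain of most laminins, had 407, 472 and 817 CPM in WKY and 487, 418 and 521 CPM in SHR. Lamb1, the common beta chain, had 301, 278 and 616 CPM in WKY and 349.6, 250.1 and 521 CPM in SHR. Lamb2, the beta chain typical of vascular and muscle basement membranes, had 112, 129.5 and 432 CPM in WKY and 204, 136 and 368 CPM in SHR. For these 3 genes the strains overlapped, and the log2 fold changes were -0.19 (SE 0.21), -0.05 (SE 0.19) and 0.25 (SE 0.24). Of the counts of Lamb1 and Lamb2, the part of Lamb2 was 33.4% ± 7.18 for WKY and 37.8% ± 3.20 for SHR (SD, n = 3 each; exact permutation p = 0.4, also 0.4 adjusted). Lamb3, a beta chain of epithelia, did not exceed 2.29 CPM, and Lamc3 had at most 0.05 CPM.

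Nidogens had positive strain differences. Nid1 stood at 434, 621 and 546 CPM in WKY and at 841, 682 and 694 CPM in SHR. Each SHR library lay above each WKY library, but the log2 fold change of 0.47 (SE 0.21) had an adjusted p of 0.416 by edgeR and 0.212 by DESeq2. Nid2 had 42.4, 14.3 and 14.99 CPM in WKY and 40.3, 29.4 and 64.5 CPM in SHR, with overlapping strains.

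**Figure D3:**
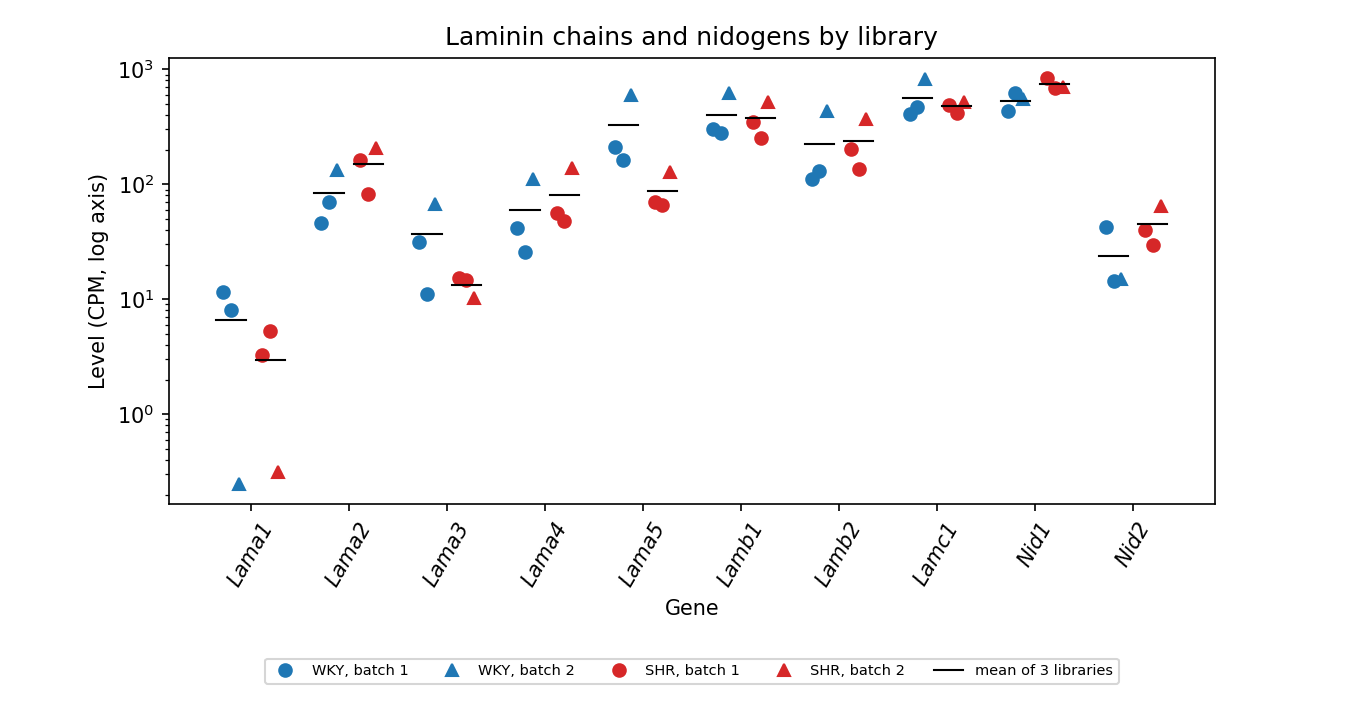
Levels (CPM, log axis) of the laminin chains and nidogens described in the text in each library, WKY in blue and SHR in red, with circles for batch 1, triangles for batch 2 and a bar at the mean of 3 libraries. Lama5 and Nid1 show no overlap of strains, in opposite directions, and both batch 2 libraries of Lama1 lie at 0.25 and 0.31 CPM.

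The 3 alpha subunits that favour laminins had lower mean levels in SHR. Itga6 (gene identifier 114517), which pairs with Itgb1 or, in hemidesmosomes, with Itgb4, had 80.8, 69.5 and 40.0 CPM in WKY and 4.36, 7.04 and 7.54 CPM in SHR. The highest SHR library was far below the lowest WKY library. Between strains the log2 difference of Itga6 was -3.73 in batch 1 and -2.39 for the single libraries of batch 2. The log2 fold change was -3.28 (SE 0.36), a 9.75-fold lower level, with an adjusted p of 0.0524 by edgeR and 1.23e-15 by DESeq2. Itga6 passed the edgeR test under RLE scaling (adjusted p = 0.0499), without the filter on low counts (0.0481) and, chosen after the data were seen, in batch 1 alone (0.0324). It also passed without WKY replicate 3 or SHR replicate 3, with a log2 fold change of -3.72 in both fits. There the batch term takes up the remaining batch 2 library, so both repeat the strain comparison within batch 1 and add no further support. Over all alternatives of edgeR the adjusted p of Itga6 lay between 0.0324 and 0.281. The authors' deposited log2 table gives Itga6 a mean of 9.62 ± 0.25 for WKY and 7.59 ± 0.30 for SHR (SD, n = 3 each).

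Itga3, whose product binds the laminins built on Lama5 and Lama3, had 638, 414 and 708 CPM in WKY and 153, 210.2 and 298 CPM in SHR. The strains did not overlap, and the difference was close in batch 1 (-1.52 on the log2 scale) and in batch 2 (-1.25). Its log2 fold change of -1.44 (SE 0.24) had an adjusted p of 0.121 by edgeR and 4.08e-06 by DESeq2. Itga7, the laminin receptor subunit of muscle, had 41.2, 14.1 and 379 CPM in WKY and 5.67, 8.31 and 20.8 CPM in SHR. The SHR library of batch 2 lay above WKY replicate 2, so the strains overlapped. The log2 fold change was -2.71 (SE 0.68, edgeR adjusted p = 0.244, DESeq2 adjusted p = 0.000382). Without WKY replicate 3 or SHR replicate 3 it was -1.98, in both fits from the batch 1 libraries only. WKY replicate 3 also held the highest sum of smooth muscle markers given above, and the part of those cells in the Itga7 level was not tested. Together Itga3, Itga6 and Itga7 held 37.7% to 40.1% of integrin alpha counts in WKY and 21.1% to 30.1% in SHR. In WKY replicate 3 this sum included 13.5% from Itga7, far more than in any other library. The share of Itga3 alone overlapped between strains, with 25.2% in WKY replicate 3 and 27.5% in SHR replicate 3. That of Itga7 also overlapped, and that of Itga6 did not.

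Among collagen receptors, Itga1 had 75.1, 45.2 and 135 CPM in WKY and 19.3, 24.4 and 30.6 CPM in SHR, without overlap. Its log2 fold change of -1.69 (SE 0.27) had an adjusted p of 0.107 by edgeR and 7.44e-06 by DESeq2, and edgeR called it without WKY replicate 2 (adjusted p = 0.0439). Itga2 spread widely, with 76.5, 15.8 and 1.12 CPM in WKY and 3.15, 7.75 and 1.66 CPM in SHR. WKY replicate 1 was far above the rest, and the strain difference had opposite signs in batch 1 (-2.79) and batch 2 (0.53). Itga11, a fibroblast receptor for fibrillar collagen, reached 8.39 CPM in WKY replicate 3 and 0.25 to 2.39 CPM elsewhere. Its log2 fold change was -1.43 (SE 0.53, edgeR adjusted p = 0.357). With a library left out it lay between -2.11 (without SHR replicate 1) and -1.10 (without SHR replicate 2), and it was -1.20 without WKY replicate 3. Itga10 did not exceed 1.92 CPM.

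Of the subunits that recognise fibronectin and related ligands, Itga8, the receptor subunit for nephronectin that is known from smooth muscle and mesangial cells, had 258, 233 and 648 CPM in WKY and 128, 69.2 and 193 CPM in SHR. Strains did not overlap, and the log2 fold change was -1.46 (SE 0.27, edgeR adjusted p = 0.144, DESeq2 adjusted p = 4.84e-05). The difference was -1.38 in batch 1, where the smooth muscle sums were 749 to 829 CPM in WKY and 838 to 903 CPM in SHR, and -1.75 in batch 2. Single smooth muscle markers differed in direction within batch 1: Myocd, the activator of the smooth muscle program, had 6.97 and 9.99 CPM in WKY and 4.46 and 2.91 CPM in SHR, while Acta2 had 93.5 and 105 CPM in WKY and 144 and 184 CPM in SHR. The part of smooth muscle cells in the Itga8 level was not tested. Itga5, the alpha subunit of the main fibronectin receptor, had 599.9, 372 and 659.7 CPM in WKY and 296, 383 and 375 CPM in SHR. These ranges overlapped by the lowest WKY library, and the log2 fold change of -0.62 (SE 0.24) had an adjusted p of 0.370 by edgeR. Itgav, the common partner of Itgb3, Itgb5, Itgb6 and Itgb8, lay between 139 and 148 CPM in all libraries but WKY replicate 3 (228 CPM), with a log2 fold change of -0.22 (SE 0.19).

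Itga4 and Itga9, related subunits that bind other ligands such as VCAM-1, fibronectin or tenascin-C, had log2 fold changes of opposite sign, and neither passed the edgeR test. Itga4 had 4.998, 1.22 and 0.50 CPM in WKY and 0.47, 0.82 and 0.26 CPM in SHR, with a log2 fold change of -1.91 (SE 0.72, edgeR adjusted p = 0.359). Without WKY replicate 1, its highest library, that was -0.92 (adjusted p = 0.647). Itga9 had 2, 3 and 11 counts in WKY and 90, 19 and 159 counts in SHR, which is at most 0.68 CPM against 0.97 to 8.26 CPM. Its log2 fold change of 4.05 (SE 0.75) rests on these few WKY counts and had an adjusted p of 0.144 by edgeR and 0.000124 by DESeq2. Without SHR replicate 1 it was 3.23 (edgeR adjusted p = 0.319).

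Of 6 tested beta subunits 3 had a log2 fold change below 0 and 3 above. Itgb1, which serves most of the alpha subunits above, had 1632, 1634 and 1756 CPM in WKY and 1517, 1353 and 960.2 CPM in SHR. The strains did not overlap, yet the log2 fold change was only -0.41 (SE 0.22, edgeR adjusted p = 0.488, DESeq2 adjusted p = 0.338). Itgb5, a partner of Itgav in vitronectin binding, had 777, 1213 and 1847 CPM in WKY and 841, 503 and 329 CPM in SHR. Batch 2 held both the highest WKY and the lowest SHR value of Itgb5, and the strain difference was -0.58 in batch 1 and -2.49 in batch 2. By DESeq2 Itgb5 was the 1 member whose strain difference depended on batch (3.48% of all genes), while edgeR called 0 members (0% of all genes) and gave 5 with an unadjusted p under 0.05 (12.7% of all genes).

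Itgb3, Itgb4 and Itgb8 had higher mean levels in SHR. Itgb3, the beta subunit of the vitronectin receptor of angiogenic endothelium and osteoclasts, had 0.76, 3.70 and 1.06 CPM in WKY and 6.35, 9.38 and 17.3 CPM in SHR. The strains did not overlap, and the log2 fold change was 2.50 (SE 0.78, edgeR adjusted p = 0.299, DESeq2 adjusted p = 0.0197). Without WKY replicate 2, the highest of that strain, it was 3.66 and passed edgeR (adjusted p = 0.0484). Without WKY replicate 3 or SHR replicate 3 it was 1.82 and not called, in both fits from the batch 1 libraries only. Itgb8, which with Itgav releases active TGF-beta from its latent complex, had 9.69, 5.92 and 13.7 CPM in WKY and 16.6, 17.0 and 31.6 CPM in SHR. Its log2 fold change of 1.14 (SE 0.22, edgeR adjusted p = 0.152, DESeq2 adjusted p = 0.000825) was alike in batch 1 (1.14) and batch 2 (1.199). Itgb4, the hemidesmosomal partner of Itga6, had 1.26, 3.97 and 10.9 CPM in WKY and 4.57, 4.95 and 23.2 CPM in SHR, with overlap and no strain call.

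**Figure D4:**
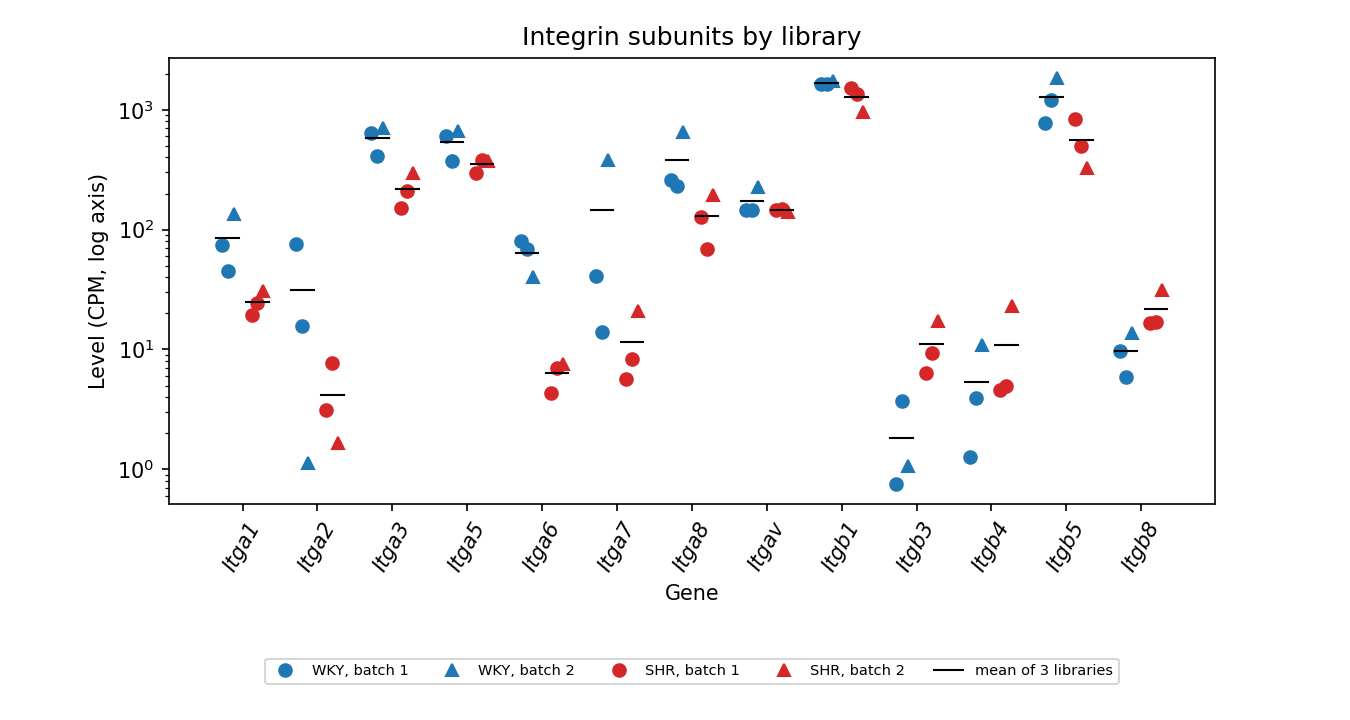
Levels (CPM, log axis) of the described integrin subunits in each library, WKY in blue and SHR in red, with circles for batch 1, triangles for batch 2 and a bar at the mean of 3 libraries. Strains are apart for Itga1, Itga3, Itga6, Itga8 and Itgb1 (SHR below) and for Itgb3 and Itgb8 (SHR above).

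Most integrins of leukocytes were near or below detection, while Itgax and Itgae were detected. Itgal and Itgam had 0 counts in every library, which, for counting error alone, allows up to 3 counts or 0.15 to 0.19 CPM. Itgad had 1 count in all. Itgb2, the beta subunit that these alpha subunits need, and Itgb7 did not exceed 0.76 and 0.37 CPM, and Itga2b, the platelet subunit, did not exceed 1.30 CPM. Itgax, a partner of Itgb2 in dendritic cells, nevertheless reached 10.1 CPM in WKY replicate 1, with 4.07 and 0.25 CPM in the other WKY libraries and 5.14, 2.70 and 0.57 CPM in SHR. Itgae had 3.22 to 5.91 CPM and Itgb6, an epithelial partner of Itgav, 0.31 to 1.78 CPM, both with overlapping strains.

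Batch was compared in the same fit, with strain as a term. By edgeR 9 of the 31 tested members were higher in batch 2 (21% of all genes) and 4 lower (22.5%). DESeq2 called 12 of 35 higher (23.7% of all genes) and 5 lower (23%). The batch 2 libraries lay above all batch 1 libraries in 6 members (27.2% of all genes) and below them in 5 (30.4%). Taken over both directions, the members called by edgeR are close to the share of all genes. Laminin chains changed in both directions. Lama4 rose by a log2 difference of 1.57 (SE 0.22, adjusted p = 0.00398), Lamb2 by 1.49 (SE 0.25, adjusted p = 0.00669), Lama5 by 1.30 (SE 0.23, adjusted p = 0.00758) and Lamb1 by 0.95 (SE 0.19, adjusted p = 0.0128). Lama1 fell by 4.46 (SE 0.56, adjusted p = 0.00309). Of the integrins, Itga7 (2.84, SE 0.67), Itga11 (2.25, SE 0.52), Itgb4 (2.18, SE 0.42), Itga8 (1.19, SE 0.27) and Itgb8 (0.86, SE 0.22) rose, with adjusted p between 0.0104 and 0.0256. Itgax (-3.61, SE 0.77, adjusted p = 0.0144) and Itgb6 (-1.90, SE 0.50, adjusted p = 0.0284) fell. Itga6, Itgb1, Itgb3, Itgb5, Nid1 and Nid2 had batch differences between -0.24 and 0.26, none called.

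Batch 2 has only 2 libraries, and without WKY replicate 3 the called members numbered 6, with 0 integrins among them. All 7 integrins called over the 6 libraries lost the call then (adjusted p 0.0541 to 0.154), as did Lamb1 (0.0723), and the difference of Itga7 was 1.56, that of Itgax -2.77 and that of Lama1 -3.76. Without SHR replicate 3 these were 3.78, -4.80 and -5.26, and Itga11, Itgb4, Itgb6 and Itgb8 were not called (adjusted p 0.0532 to 0.140). Leaving out a batch 1 library also ended calls of integrins, with adjusted p up to 0.0869: Itga7 and Itgb6 without WKY replicate 1, Itga8, Itga11 and Itgb6 without WKY replicate 2, Itga7, Itgax, Itgb6 and Itgb8 without SHR replicate 1, and Itgb6 and Itgb8 without SHR replicate 2. Lama1, Lama4, Lama5 and Lamb2 were called with each of the 6 libraries left out in turn (highest adjusted p 0.0420).

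Most smooth muscle markers were higher in batch 2. Of those tested, Myh11 had the largest change, with 345 and 49.2 CPM in the batch 2 libraries and 2.57 to 6.40 CPM in batch 1. Tagln was instead lower in the SHR library of batch 2 than in the SHR libraries of batch 1. Des was lower in the WKY library of batch 2 than in the WKY libraries of batch 1. Neither was called between batches by edgeR. The part of smooth muscle cells in these differences was not tested. The strain difference had the same sign in both batches in 21 of the 31 tested members, against 59.1% of all genes.

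Promoters were printed only for members whose RefSeq start in the sequence table is also the annotated gene end. The 250 bases before it then hold no transcribed sequence of that gene model. They are shown for Lama5 and Itga8, lower in SHR, and for Itgb8, higher, as an example of each direction. The sequences are from RefSeq on the rat build GRCr8, on the strand of the gene, and 29 of the 39 members were in that table. Capitals mark GGGCGG, the GC box, and CCAAT on either strand. Lama5 is at chr3:187695975-187696224, Itga8 at chr17:80410634-80410883 and Itgb8 at chr6:146351246-146351495, all on the minus strand.
Lama5: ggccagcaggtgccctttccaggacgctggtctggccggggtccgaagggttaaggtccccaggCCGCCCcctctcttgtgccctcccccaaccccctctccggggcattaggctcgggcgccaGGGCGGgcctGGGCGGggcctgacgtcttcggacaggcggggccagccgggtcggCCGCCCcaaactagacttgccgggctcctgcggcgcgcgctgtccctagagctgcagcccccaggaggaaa
Itga8: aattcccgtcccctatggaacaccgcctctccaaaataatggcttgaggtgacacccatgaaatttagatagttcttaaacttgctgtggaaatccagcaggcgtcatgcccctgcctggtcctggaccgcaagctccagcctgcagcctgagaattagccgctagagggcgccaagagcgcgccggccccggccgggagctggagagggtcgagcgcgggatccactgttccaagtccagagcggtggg
Itgb8: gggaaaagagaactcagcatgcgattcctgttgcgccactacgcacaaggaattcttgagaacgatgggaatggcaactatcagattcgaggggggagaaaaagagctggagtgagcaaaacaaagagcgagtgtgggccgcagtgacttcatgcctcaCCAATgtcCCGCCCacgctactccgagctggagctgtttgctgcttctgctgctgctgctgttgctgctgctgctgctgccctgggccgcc
Lama5 holds 4 GC boxes, which begin 186, 126, 116 and 71 bases before the start, and Itgb8 holds 1, with a CCAAT box next to it. No GC or CCAAT box was found in these letters of Itga8. None of the 3 holds TATAAA, the TATA box. The E box CACGTG, the AP-1 element TGANTCA and the cAMP response element TGACGTCA were not found in them either. Across the 27457 promoters of this length 32.4% hold GGGCGG, 34.3% CCAAT, 13.1% TATAAA, 6.36% TGANTCA, 5.79% CACGTG and 1.7% TGACGTCA. Of the 29 matched members, GGGCGG is held by 15 and CCAAT by 6. These counts include members whose start is not the annotated gene end, such as Itga3 and Nid1. A match is a description of letters, not a bound site.

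Other genes of the basement membrane and of adhesion were counted from fixed lists in the same fit. Between strains edgeR called 0 of them (0.254% of all genes). DESeq2, which also tested genes under the edgeR filter, called 3 higher (2.68% of all genes) and 6 lower (2.46%). Of the 75 tested by edgeR, 13 had an unadjusted p below 0.05, where 7.18% of all genes were lower and 6.1% higher at that limit. The 3 higher ones were all ligands other than laminins, and the rest were lower in SHR. The counts of the single lists below are small and are read against the same shares. Of 17 tested basement membrane partners 1 had an unadjusted p below 0.05. This was Smoc1, a calcium-binding matrix protein, with 47.6, 20.3 and 289 CPM in WKY and 3.94, 3.57 and 27.0 CPM in SHR. Smoc1 had a log2 fold change of -3.26 (SE 0.35) at an edgeR adjusted p of 0.0524 and a DESeq2 adjusted p of 3.88e-16. The strains overlapped in Smoc1 across batches but not within them. The list's median log2 fold change was 0.03. The next by p were the fibulin gene Fbln2 (-1.02, SE 0.48, edgeR adjusted p = 0.446) and the netrin gene Ntn4 (0.55, SE 0.33, adjusted p = 0.530).

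Among 12 other laminin receptors and partners, 3 had an unadjusted p below 0.05, all of them lower in SHR, and the median was -0.23. Dag1, the dystroglycan gene and a laminin receptor outside the integrins, had 689, 512 and 507 CPM in WKY and 425, 422 and 334 CPM in SHR, without overlap. The log2 fold change of Dag1 was -0.54 (SE 0.17), with an adjusted p of 0.305 by edgeR and 0.0468 by DESeq2. Mcam, a vascular adhesion receptor that binds Lama4-containing laminin, had 4.09, 3.12 and 47.8 CPM in WKY and 0.79, 1.89 and 8.68 CPM in SHR (-1.81, SE 0.41, edgeR adjusted p = 0.204, DESeq2 adjusted p = 0.00426). Lgals1, the lectin galectin-1, had 601, 994 and 1648 CPM in WKY and 581, 552 and 433 CPM in SHR, also without overlap (-0.96, SE 0.38, edgeR adjusted p = 0.370).

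Of 26 tested integrin adaptors and focal adhesion genes, an unadjusted p below 0.05 was found for 2, both lower in SHR, and the median was -0.30. They were the tensin gene Tns3 (log2 fold change -0.49, SE 0.14, edgeR adjusted p = 0.276) and the zyxin gene Zyx (-0.47, SE 0.19, adjusted p = 0.376), followed by Krit1 (-0.29, SE 0.12, adjusted p = 0.395). Of 20 tested ligands other than laminins, 3 higher and 4 lower ones passed the same unadjusted limit, and the median was -0.31. Tgfb1, whose latent complex binds Itgav integrins, had the smallest p (log2 fold change -1.11, SE 0.14, edgeR adjusted p = 0.069). Fn1, the fibronectin ligand of Itga5, had 4962, 1703 and 10611 CPM in WKY and 1482, 1176 and 1977 CPM in SHR. The log2 fold change of Fn1 was -1.69 (SE 0.49), with an adjusted p of 0.272 by edgeR and 0.00843 by DESeq2. Icam2, a leukocyte integrin ligand of endothelium, had at most 1.01 CPM in WKY and 2.04 to 4.62 CPM in SHR (2.63, SE 0.75, edgeR adjusted p = 0.265, DESeq2 adjusted p = 0.0267).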

How the data were processed

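RNA sequencing of 6 libraries was used, with paired reads of 100 bases. The authors deposited estimated counts per gene, unscaled, and a table of log2 values. The submitters' processing notes list the Rnor_6.0 build and the tools RSEM 1.2.28, Bowtie2 2.4.4 and DESeq2 1.42.1, with no role or order, and strand and annotation are not given in the sources used here. From the values, 9% of estimated counts were not whole (tolerance 0.001). The deposited log2 values have equal batch means in every gene (largest difference 7.5e-09), so they are used only for description.

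Estimated counts were rounded. Genes were kept with filterByExpr by strain (12614 of 16770), scaled by TMM and tested two-sided in edgeR 4.0.16 under R 4.3.3 by its quasi-likelihood F-test (batch and strain as terms, 3 residual degrees of freedom), with Benjamini-Hochberg adjustment over all genes tested. Called means an adjusted p below 0.05. The standard error (SE) comes from the log2 fold change and the F statistic. Within-batch differences are of log2 CPM with a prior count of 2. DESeq2 1.42.0 was an alternative, with other scaling (RLE, the median-ratio method), filters, terms and libraries left out.

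The members and lists were chosen with earlier results of these data known. Values in each library are given for tested members with a mean of at least 5 CPM in a strain, and tests for those with an unadjusted p below 0.05 between strains or an adjusted p below 0.05 between batches. Tests of other members are given where strains did not overlap or a role would otherwise lack one, which was decided after their values were seen. Of each further list the 3 genes with the smallest p are named. The values of 1 member are not reported here, though it is in the counts. Levels per coding length were planned but no coding lengths were at hand, so levels are not compared between genes and shares are of counts. Of the 89 genes in the further lists 84 were found by symbol.

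Libraries with the same replicate number deviated from their strain means together (correlations 0.30, 0.40 and 0.66 for replicates 1, 2 and 3). Replicates 1 and 2 correlated as highly with each other's number (up to 0.49), and with the batch difference removed the correlation was -0.20. The labels name only the batch as shared, and the replicate block is an alternative.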

Additional observations from a re-analysis of the deposited data

How the results depend on the processing

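Between strains 0 members were called by edgeR, and 0 without the batch term and with the replicate block. DESeq2 called 9. RLE scaling, no filter on low counts and, added after the data were seen, batch 1 alone each called 1, which was Itga6. Leaving out 1 library at a time called 0 to 2 members. These were Itga6 without WKY replicate 3 or SHR replicate 3, and Itga1 and Itgb3 without WKY replicate 2. The fits without a batch 2 library repeat the strain comparison within batch 1, so the calls of Itga6 there and in batch 1 alone are not separate. No log2 fold change of the 13 members with an unadjusted p below 0.05 changed sign under any alternative. Of the further lists, 9 genes were called by DESeq2, 1 with RLE scaling and 1 without the filter, against 0, and 0 to 1 with a library left out. The pairing by replicate number changed no call.

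Between batches 13 members were called, 17 by DESeq2 and 9 without the strain term. With a library left out the count was 6 to 12, the lowest without WKY replicate 3. A strain difference that depended on batch was called for 0 members by edgeR and for 1 by DESeq2. The strain difference in the Lama5 share was -37.5 to -33.7 percentage points with a library left out, and that in the Lamb2 share 1.33 to 8.38. Shares of levels per coding length in place of counts were not run. With 3 libraries per strain, and 1 per strain in batch 2, differences of the size seen for most members cannot be told from the spread between libraries.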
